A study of Ovis aries with 36 samples.

Results

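The comparison concerned fetal longissimus dorsi, the long muscle of the back, from lambs whose dams were fed corn or dried corn distillers grains. Its members were the libraries that the labels give as longissimus dorsi muscle with a maternal diet of Corn (CN) or of Dried corn distillers grains (DG), which is 8 of the 36 libraries of the series, 4 per diet. RNA from the muscle of a few fetuses of 1 sex was pooled for each library and sequenced, except that the study lists a single fetus for CN F2 (the female pool 2 of CN), and reads were counted per transcribed locus. The question was which genes and functions differed between the diets, in both directions, beyond the genes that the study names.

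The dams were Polypay ewes mated to 1 ram and assigned to diets from mid gestation until the fetuses were collected near term. CN ewes received whole shell corn, a starch source, in limited amounts. DG ewes received limited amounts of corn distillers grains, which supply fibre, protein and fat. The diets were set to supply equal energy. A further 4 muscle pools came from ewes with free access to alfalfa haylage (HY, hay in the labels), and their spread entered the fit. Each diet had 2 pools of female fetuses (F1 and F2) and 2 of male fetuses (M1 and M2). By the study's list, every pool except CN F2 shared a dam with another pool of its diet. The pools were therefore not fully independent, and the p-values measure the spread between these pools. Values for single pools are listed in the order F1, F2, M1 and M2, as CPM, which are read counts scaled to a common library total, without correction for gene length.

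In late fetal muscle, multinucleate fibres formed by the fusion of myoblasts grow by adding nuclei and contractile protein. Each fibre is wrapped in a basement membrane of type IV collagen, laminin and perlecan, and the dystroglycan complex at costameres ties that membrane to the contractile apparatus. Protein turnover through autophagy and ubiquitin ligases, and the supply of amino acids and glucose from the dam, set the balance of growth in this tissue.

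Depth differed between the diets. CN pools held between 13749762 and 19387181 counts and DG pools between 20370147 and 29625146, a ratio of means of 1.43 without overlap (exact permutation test, two-sided p = 0.0286, the smallest that 8 pools allow). Depth and diet cannot be told apart in this design. With all muscle pools thinned to the smallest total, the counts of called loci were 172 higher and 7 lower, beside 181 and 7 at full depth. DG F1 stood apart, with the highest score on the first principal component (30.9% of the variance) and the lowest mean correlation with its own diet (0.967). Markers of skeletal fibres summed to between 99068 and 143094 CPM in every one of the 8 pools, and MYH7, slow myosin, was not analysed here. For 13 cell type marker lists, no summed level differed between the diets after adjustment (lowest adjusted p = 0.371, exact permutation test). The nearest were endothelial markers, at 532 to 658 CPM in CN and 655 to 804 CPM in DG, and satellite cell markers, at 83.0 to 97.8 CPM in CN and 94.5 to 119 CPM in DG (unadjusted p = 0.0571 each). In pooled tissue, a change in the number of cells of a type and a change in RNA per cell cannot be told apart.

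DG muscle differed from CN muscle mainly by higher levels. Single genes of the basement membrane, of the fibre's attachment to it, of myoblast fusion and of autophagy were among those that rose. The few loci that fell by the main test at FDR 0.05 were mostly unnamed. Of 18573 loci tested, 188 (1.01%) passed an FDR of 0.05 in edgeR's quasi-likelihood test, 181 higher (0.975%) and 7 lower (0.0377%) in DG. At the wider FDR of 0.20, which the study used for its functional analysis, 1312 loci passed (7.06%), 1012 higher (5.45%) and 300 lower (1.62%). All 4 DG pools lay above all 4 CN pools at 1022 loci (5.5% of those tested) and below them at 586 (3.16%). The median log2 fold change over all loci was -0.0024, and 0.02 over the 13589 named loci. Of these named loci, 922 were higher (6.78%) and 197 lower (1.45%) at FDR 0.20, and 165 were higher and 2 lower at FDR 0.05. Fold changes were positive at 7241 of them and negative at 6348. The counts for gene lists below are to be read beside these values, and a list near them shows no more than the named loci at large.

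The 181 higher loci spanned the range of levels. Their median was 7.33 CPM in CN and 15.3 CPM in DG, beside 8.76 and 9.22 CPM over all loci tested, and 100 of them changed by at least 1 on the log2 scale (range 0.46 to 4.16). Among these 181, 145 carried a gene symbol and 16 no name. Loci lower at the wider FDR of 0.20 had a median of 20.7 CPM in CN and 14.9 CPM in DG and a median log2 fold change of -0.60, and 103 of the 300 (34.3%) had no name, beside 26.8% of all loci tested. Relative to the CN mean, the median of the 181 higher loci was 1.20 (log2) in DG F1, 0.80 in DG F2, 0.97 in DG M1 and 0.79 in DG M2. The shift was largest in DG F1. The loci were chosen as higher in these same pools, and the 2 diets did not overlap at any of the 181. A median above 0 in each DG pool therefore follows from the choice and is no test of agreement between pools.

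**Figure D1:**
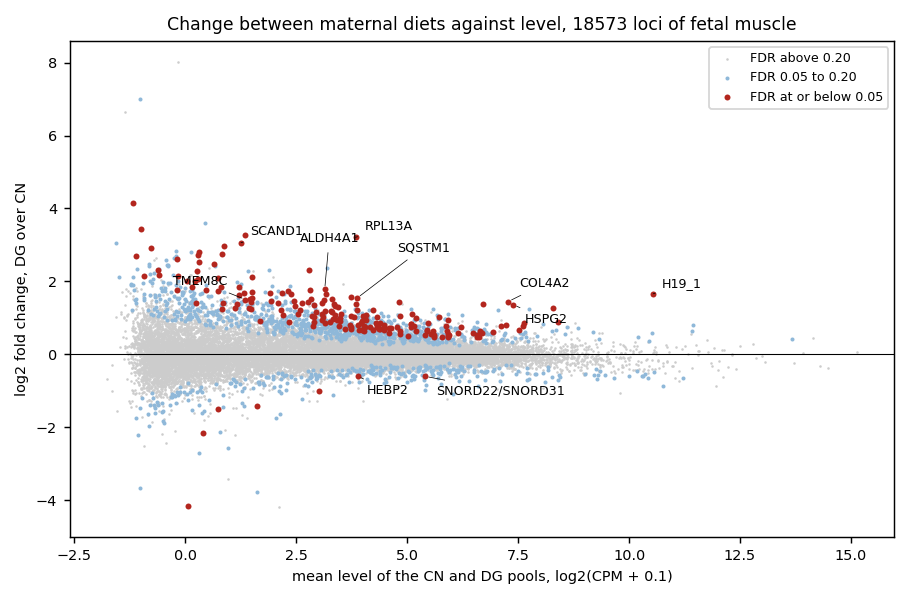
Log2 fold change of DG over CN (y axis) against the mean level of the 8 pools, log2(CPM + 0.1) (x axis), for 18573 loci, with loci at or below FDR 0.05 in red and those between 0.05 and 0.20 in blue. Red points lie above 0 at 181 loci and below it at 7, most of them at low and middle levels.

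Single basement membrane and microfibril genes rose, while others did not pass the test. Among the latter were the laminin chain LAMB1 (log2 fold change -0.26, FDR = 0.345), NID1 (-0.02, FDR = 0.964) and FBN1 (-0.22, FDR = 0.633). COL4A2, the alpha-2 chain of type IV collagen (chr10:84344245-84507465 in Oar_v3.1), stood at 107, 82.7, 52.6 and 90.4 CPM in the CN pools and at 242, 215, 236 and 215 CPM in the DG pools. Every DG pool was at least at 215 CPM while no CN pool passed 107, and the DG pools were close to one another. The log2 fold change was 1.45 ± 0.17 (SE; FDR = 0.00371). HSPG2, which encodes perlecan (chr2:243784855-243859456), rose from 144, 60.9, 67.7 and 105 CPM to 298, 235, 215 and 219 CPM (log2 fold change 1.36 ± 0.22, FDR = 0.0146). CN F1 and CN M2 were the higher CN pools for both genes. LAMA5, the laminin alpha-5 chain, was at 13.1, 8.71, 13.3 and 10.2 CPM in CN and 40.95, 22.6, 22.7 and 18.7 CPM in DG (log2 fold change 1.21 ± 0.23, FDR = 0.0274), and DG F1 was the highest pool by a wide margin. EMILIN1, an elastic fibre glycoprotein, rose from 5.39 ± 2.02 (mean ± SD, n = 4 pools) to 12.3 ± 1.59 CPM (log2 fold change 1.18 ± 0.23, FDR = 0.0288). COL6A2, a chain of type VI collagen, which links basement membrane to interstitial matrix, rose from 54.9 ± 10.9 to 92.7 ± 18.9 CPM (log2 fold change 0.75 ± 0.17, FDR = 0.0495). VWA1, a matrix protein that binds perlecan, rose from 1.37 ± 0.416 to 3.93 ± 1.18 CPM (log2 fold change 1.52 ± 0.31, FDR = 0.033).

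Most other matrix genes did not pass the test. Of 48 collagen and matrix genes tested, 5 were higher and 0 lower at FDR 0.05, 9 were higher and 1 lower at FDR 0.20, and the list's median log2 fold change was 0.05. COL4A1, the partner chain of COL4A2, gave 1902, 1225, 1179 and 1496 CPM in CN and 1239.8, 1702, 1564 and 1802 CPM in DG with overlapping pools (log2 fold change 0.12 ± 0.17, FDR = 0.767). Reads were split between a larger COL4A2 locus and a smaller one of the same name in that region (20.8 and 28.2 CPM in CN and DG). With both COL4A2 loci summed the log2 fold change was 1.3 ± 0.20, FDR = 0.0136. The fibrillar collagens COL1A1 (log2 fold change 0.23, FDR = 0.651) and COL3A1 (-0.25, FDR = 0.588, at its larger locus) did not pass. A second COL3A1 locus in the region was at 678, 791, 576 and 1019 CPM in CN and 375, 512, 511 and 518 CPM in DG, with every DG pool below every CN pool, and was lower at the wider FDR of 0.20 (log2 fold change -0.68 ± 0.18, FDR = 0.0891). Summed, the 2 loci gave -0.31 ± 0.20, FDR = 0.46. At FDR 0.20 the higher members included COL5A1 (log2 fold change 0.62 ± 0.16, FDR = 0.0816), COL18A1 (log2 fold change 0.89 ± 0.24, FDR = 0.094) and COL6A1 (log2 fold change 0.75 ± 0.22, FDR = 0.127), and the lower one, with 1 locus counted per gene, was TNC. Endothelial cells also make type IV collagen and perlecan, and the summed endothelial markers given above lay higher in DG without passing their test. Their part in these values was not tested.

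**Figure D2:**
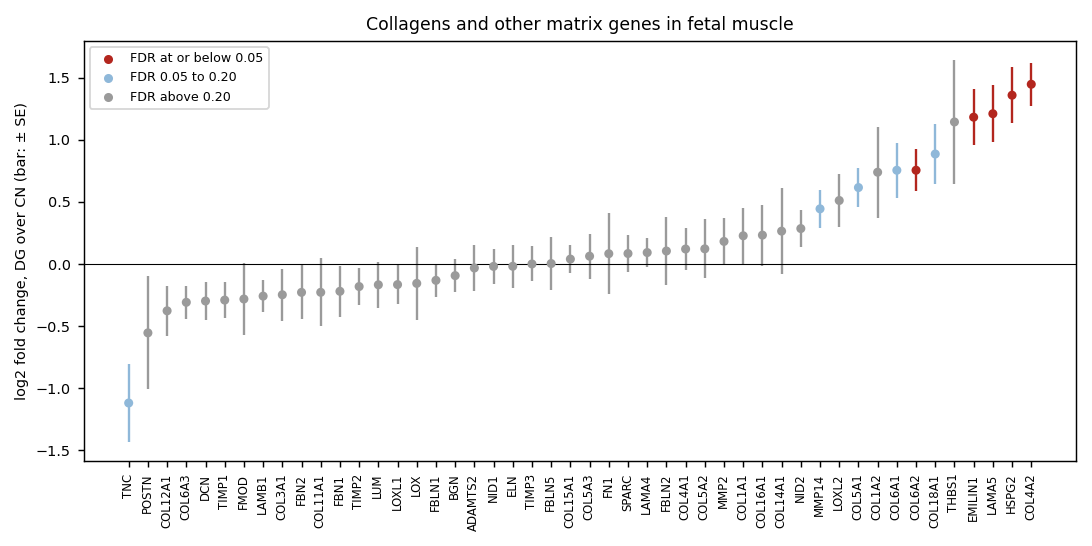
Log2 fold change of DG over CN (y axis, points, with bars of ± 1 SE) for the collagen and matrix genes tested, in order of size along the x axis, 1 locus per gene. COL4A2, HSPG2, LAMA5, EMILIN1 and COL6A2 are in red at FDR 0.05, and TNC, at the far left, is the 1 lower member past FDR 0.20.

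In the muscle lineage, a gene of myoblast fusion and a locus of a transcriptional coactivator were among those higher in DG, while PAX7 and MYOG did not pass the test. TMEM8C, myomaker, the membrane protein that myoblasts need to fuse, gave 1.52, 1.54, 1.15 and 0.881 CPM in CN and 4.204, 3.12, 4.26 and 2.99 CPM in DG. The DG pools were all at or above 2.99 CPM and the CN pools at or below 1.54 CPM. Its region on chromosome 3 is shared by 48 loci, and reads of overlapping transcripts there cannot be told apart without strand (log2 fold change 1.5 ± 0.25, FDR = 0.0149). MKL1, the coactivator of serum response factor, rose from 10.7 ± 0.389 to 18.8 ± 4.799 CPM (log2 fold change 0.81 ± 0.18, FDR = 0.0462). A second MKL1 locus in the region was at 11.8 and 10.2 CPM in CN and DG. Summed, MKL1 gave 0.37 ± 0.18, FDR = 0.334, so the call did not hold for the gene as a whole. Of 21 myogenic regulators tested, 3 were higher and 0 lower at FDR 0.05, and 6 were higher and 0 lower at FDR 0.20, with a list median of 0.10. SRF was among the latter (log2 fold change 1.11 ± 0.31, FDR = 0.104), as were SMYD1, a methyltransferase of striated muscle (log2 fold change 0.56 ± 0.18, FDR = 0.162), and MEF2D (log2 fold change 0.31 ± 0.11, FDR = 0.185). MYOG, which drives terminal differentiation, was at 255 ± 25.4 CPM in CN and 249.8 ± 42.9 CPM in DG (log2 fold change -0.03, FDR = 0.947). PAX7, the satellite cell factor, was at 33.8 ± 1.52 and 32.8 ± 2.58 CPM (FDR = 0.876).

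Single structural and channel genes of the fibre membrane rose, while most members of their lists did not pass the test. PLEC, plectin, a linker of intermediate filaments, was at 203, 96.2, 126 and 135 CPM in CN and 316, 253, 221 and 234 CPM in DG (log2 fold change 0.87 ± 0.19, FDR = 0.0434), and CN F1 was the CN pool nearest to the DG pools. DAG1, dystroglycan, gave 121, 176, 127 and 145 CPM in CN and 209.7, 205, 269 and 224 CPM in DG (log2 fold change 0.67 ± 0.14, FDR = 0.0348), here with DG M1 highest. CACNG1, a subunit of the calcium channel of skeletal muscle, rose from 48.9 ± 4.800 to 72.5 ± 8.65 CPM (log2 fold change 0.57 ± 0.12, FDR = 0.0436). Of 29 dystrophin complex and costamere genes, 25 had positive fold changes (median 0.20), beside 7241 of the 13589 named loci. In that list 2 were higher at FDR 0.05 and 5 at FDR 0.20. Laminin beta-2 (LAMB2, log2 fold change 0.72 ± 0.19, FDR = 0.094) and talin (TLN1, log2 fold change 0.4 ± 0.10, FDR = 0.0802) were in the wider set. Excitation-contraction coupling had 1 of 27 at FDR 0.05 and 2 at FDR 0.20 (median 0.13). That share, 7.41%, was near the 6.78% of named loci. No Z-disc gene of 17 passed FDR 0.05, and 2 were higher at FDR 0.20, with SYNPO2 at log2 fold change 1.24 ± 0.31, FDR = 0.0745 and FLNC, filamin C, at log2 fold change 0.47 ± 0.13, FDR = 0.106. No member of the dystrophin, coupling or Z-disc lists was lower at FDR 0.20.

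**Figure D3:**
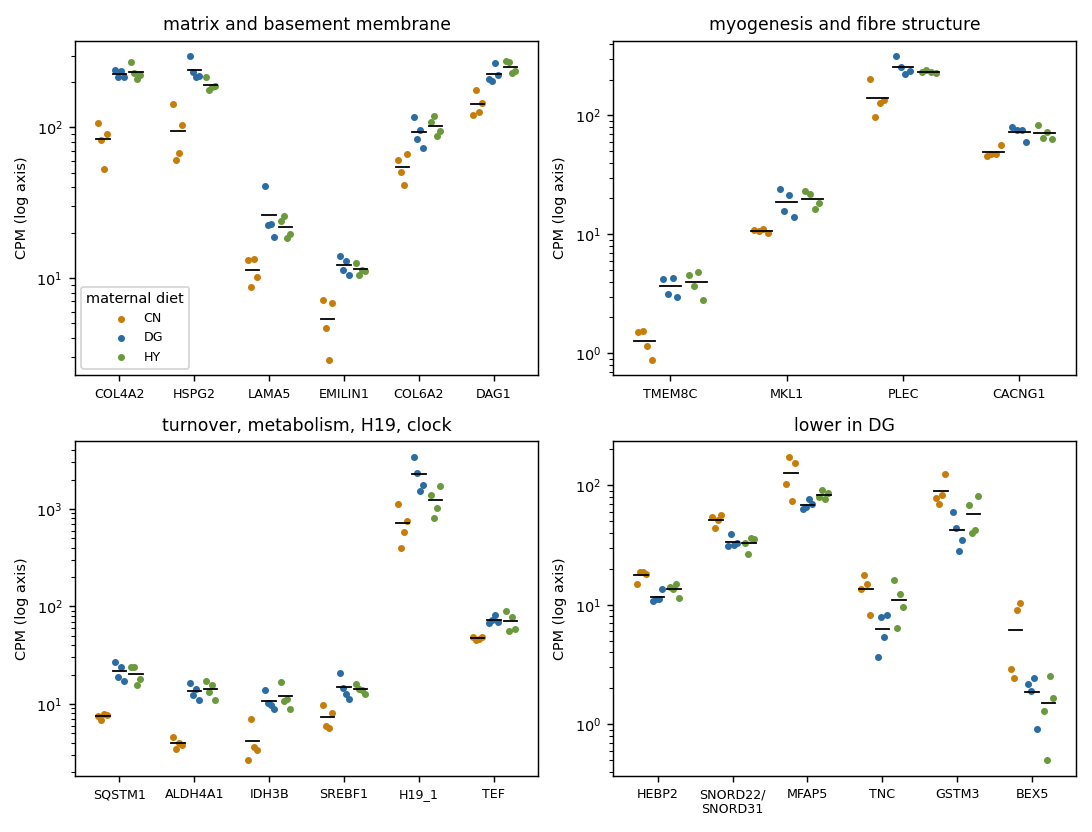
CPM on log axes (y axis) for genes of 4 roles (x axis), 1 point per pool of CN, DG and HY, with a line at each diet's mean. For the matrix, fibre and metabolism genes shown every DG point lies above every CN point, and in the lower right panel the DG points lie below, with MFAP5 overlapping.

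Protein turnover genes rose in part. SQSTM1, the autophagy receptor p62 (chr5:1102454-1129695), was at 7.47, 6.82, 7.81 and 7.66 CPM in CN and 26.9, 18.9, 23.96 and 17.1 CPM in DG. The CN pools lay close to one another and the lowest DG pool was above them all (log2 fold change 1.54 ± 0.18, FDR = 0.0032). UBR4, a large ubiquitin ligase, was at 54.5, 61.3, 60.1 and 51.2 CPM in CN and 101, 80.7, 80.7 and 77.3 CPM in DG, with DG F1 apart from the other DG pools (log2 fold change 0.58 ± 0.13, FDR = 0.0451). Of 40 ubiquitin ligase and autophagy genes, 2 were higher at FDR 0.05 and 8 at FDR 0.20, none lower at either, and the median was 0.19. TFEB, the transcription factor of lysosomal genes (log2 fold change 0.69 ± 0.17, FDR = 0.0734), CUL7 (log2 fold change 0.94 ± 0.23, FDR = 0.0675) and ATG7 (log2 fold change 0.57 ± 0.19, FDR = 0.16) were in the wider set. Proteasome subunits and chaperones showed no such rise, with 0 of 43 higher and 2 lower at FDR 0.20 and a median of 0.01.

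Single genes of small GTPase, growth factor and guidance signalling rose. RHOB, a small GTPase of actin and endosome control, rose from 3.79, 5.02, 3.22 and 5.15 CPM in CN to 18.8, 11.1, 11.9 and 11.97 CPM in DG (log2 fold change 1.64 ± 0.20, FDR = 0.00441), and DG F1 was highest. GNA11, a G protein alpha subunit, rose from 5.92 ± 1.802 to 13.5 ± 2.37 CPM (log2 fold change 1.18 ± 0.21, FDR = 0.0182). ARHGEF17, a guanine nucleotide exchange factor (log2 fold change 1.07 ± 0.24, FDR = 0.0485), and ARHGAP35, a GTPase activating protein (log2 fold change 0.56 ± 0.12, FDR = 0.0474), both rose. FGFRL1, a decoy receptor for fibroblast growth factors, was at 2.101, 4.100, 3.15 and 3.25 CPM in CN and 13.9, 8.95, 11.1 and 8.74 CPM in DG (log2 fold change 1.75 ± 0.22, FDR = 0.00448). CRKL, an adaptor of receptor tyrosine kinases, gave 1.28, 2.61, 2.51 and 2.64 CPM in CN, with CN F1 apart, and 10.9, 5.06, 8.66 and 5.54 CPM in DG (log2 fold change 1.73 ± 0.28, FDR = 0.0144). RGMA, a repulsive guidance molecule and BMP coreceptor, was at 3.04, 4.100, 2.72 and 3.32 CPM in CN and 9.71, 8.32, 8.66 and 8.601 CPM in DG, without overlap (log2 fold change 1.41 ± 0.16, FDR = 0.0032). PLXNA1, a semaphorin receptor, rose from 1.28 ± 0.239 to 4.22 ± 2.803 CPM (log2 fold change 1.71 ± 0.38, FDR = 0.0485). Its DG mean leaned on DG F1 at 8.32 CPM, with the other DG pools between 2.07 and 3.57. In the insulin, IGF and mTOR list, no gene of 33 passed FDR 0.05 and 3 were higher at FDR 0.20 (median 0.19), namely AKT2 (log2 fold change 0.59 ± 0.15, FDR = 0.0752), MLST8 (log2 fold change 0.46 ± 0.14, FDR = 0.141) and the IGF2 locus given below. At FDR 0.20, Wnt (3 of 29 higher and 1 lower), TGF-beta and BMP (5 of 28 higher, 0 lower) and Notch genes (2 of 24 higher, 0 lower) had few members, and no member of these lists passed FDR 0.05. AXIN1 and BCL9L (FDR = 0.0196 and 0.0142), Wnt pathway genes that the study names, KREMEN1, a receptor of Dickkopf Wnt inhibitors (FDR = 0.0387), and RGMA are outside these lists and rose. LTBP4, which binds latent TGF-beta in the matrix, was the list member nearest to the threshold (log2 fold change 1.07 ± 0.24, FDR = 0.051).

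Chromatin, transcription and RNA genes rose in small numbers. KDM4B and KDM6B, demethylases of histone H3 lysines, rose from 10.3 ± 0.627 to 21.5 ± 7.17 CPM (log2 fold change 1.06 ± 0.20, FDR = 0.0272) and from 13.9 ± 1.603 to 25.5 ± 7.204 CPM (log2 fold change 0.87 ± 0.19, FDR = 0.0434). Of 39 histone methylation enzymes, 36 had positive fold changes (median 0.20), 2 passed FDR 0.05 and 6 passed FDR 0.20, all higher. DG F1 was the highest pool for DOT1L, a methyltransferase of H3, at 33.02 CPM, with the other DG pools between 12.7 and 17.6 (log2 fold change 0.98 ± 0.30, FDR = 0.138). HIRA, a histone H3.3 chaperone that the study names, was the 1 of 41 chromatin remodelling genes past FDR 0.05 (log2 fold change 1.04 ± 0.18, FDR = 0.0182). Histone acetylation and corepressor genes had 0 of 40 at FDR 0.05 and 5 higher at FDR 0.20, led by HDAC4 (log2 fold change 1.61 ± 0.37, FDR = 0.0547), a class II deacetylase that binds MEF2 factors. CTBP1, a corepressor outside that list, rose (log2 fold change 1.44 ± 0.22, FDR = 0.0129). CDK9, the kinase that releases paused RNA polymerase II, rose (log2 fold change 0.63 ± 0.13, FDR = 0.0395), as did PTBP1, a splicing repressor (log2 fold change 0.53 ± 0.10, FDR = 0.0304), each the single member past FDR 0.05 of its list, 47 Mediator and polymerase genes (median 0.05) and 56 splicing genes (median -0.03). NACC1, a BTB domain transcriptional regulator, went at 1 locus from 0.525, 0.666, 0.502 and 0.678 CPM in CN to 3.51, 2.26, 2.37 and 2.01 CPM in DG (log2 fold change 2.08 ± 0.28, FDR = 0.00593). A second NACC1 locus in the region was at 0.652 and 1.11 CPM in CN and DG and did not pass (log2 fold change 0.73 ± 0.31, FDR = 0.268). RBM38, an RNA binding protein of the p53 response, rose at 1 locus (log2 fold change 1.68 ± 0.32, FDR = 0.0288) but a larger locus of that name stood at 17.4 and 18.9 CPM, and summed they gave 0.28 ± 0.19, FDR = 0.483.

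Single motor, endosome and transport genes rose, while most members of their lists did not pass. DYNC1H1, the dynein heavy chain (109 ± 5.37 to 190.4 ± 28.6 CPM, log2 fold change 0.8 ± 0.13, FDR = 0.0129), and KIF1C, a kinesin (102 ± 14.9 to 175 ± 22.1 CPM, log2 fold change 0.78 ± 0.13, FDR = 0.0149), rose. They were the 2 of 40 large scaffold and motor genes past FDR 0.05, and 36 of that list had positive fold changes (median 0.21, 8 higher and 0 lower at FDR 0.20). HGS, which sorts ubiquitinated receptors on endosomes (log2 fold change 0.76 ± 0.14, FDR = 0.0257), and AP1B1, a clathrin adaptor subunit (log2 fold change 0.67 ± 0.13, FDR = 0.0318), rose within 42 endocytosis genes (7 higher and 0 lower at FDR 0.20, median 0.04). RANGAP1, the GTPase activator of nuclear transport, rose from 8.23, 7.02, 6.31 and 7.19 CPM in CN to 19.4, 12.98, 14.3 and 15.03 CPM in DG without overlap (log2 fold change 1.1 ± 0.15, FDR = 0.00728). Others of the largest changes were TTYH3, a chloride channel (log2 fold change 1.68 ± 0.32, FDR = 0.0286), CHID1, a chitinase-like lysosomal protein (log2 fold change 1.5 ± 0.28, FDR = 0.0217), the locus of AKAP17A and ASMT (log2 fold change 1.53 ± 0.27, FDR = 0.0182) and SCAND1 (log2 fold change 3.06 ± 0.56, FDR = 0.0218), whose CN pools were at 1.23 CPM or below. A locus shared by CHI3L1 and MYBPH, myosin binding protein H, rose from 58.2 ± 10.4 to 151 ± 41.8 CPM (log2 fold change 1.38 ± 0.20, FDR = 0.0108), but the MYBPH locus beside it was at 263 and 298 CPM, and the sum gave 0.48 ± 0.22, FDR = 0.297.

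Among metabolic genes, single enzymes and regulators passed the test. ALDH4A1, the mitochondrial enzyme that completes proline breakdown, had the smallest p of all named loci, at 4.55, 3.43, 3.94 and 3.796 CPM in CN and 16.4, 12.5, 14.2 and 10.98 CPM in DG (log2 fold change 1.78 ± 0.18, FDR = 0.00227). It was the 1 member past FDR 0.05 of 34 amino acid breakdown genes, of which 3 were higher at FDR 0.20 and none lower (median 0.03). The other 2 were loci of alanine aminotransferases, GPT2 (log2 fold change 0.84 ± 0.29, FDR = 0.184) and GPT with PPP1R16A (log2 fold change 0.58 ± 0.19, FDR = 0.156). IDH3B, a subunit of isocitrate dehydrogenase in the citrate cycle, was at 2.63, 7.02, 3.58 and 3.39 CPM in CN and 13.9, 10.1, 9.73 and 8.84 CPM in DG, and CN F2 came nearest to the DG pools (log2 fold change 1.35 ± 0.29, FDR = 0.0434). Of 23 citrate cycle genes, 3 were higher at FDR 0.20 and none lower (median 0.10), OGDH among them (log2 fold change 0.54 ± 0.14, FDR = 0.0764), while its partner subunit IDH3A was at 301 ± 41.9 and 254 ± 43.4 CPM (log2 fold change -0.24 ± 0.14, FDR = 0.405). SREBF1, the transcription factor of lipid synthesis, rose from 9.75, 5.89, 5.66 and 7.999 CPM to 20.5, 14.4, 12.8 and 11.2 CPM (log2 fold change 1.01 ± 0.21, FDR = 0.0402). FASN, fatty acid synthase, gave 12.8, 9.02, 10.7 and 12.2 CPM in CN and 43.3, 16.2, 17.6 and 15.6 CPM in DG, with DG F1 far above the rest (log2 fold change 1.05 ± 0.30, FDR = 0.111). Adipocyte markers summed to 85.6 to 126 CPM in CN and 113 to 178 CPM in DG (exact permutation p = 0.171), all 6 tested markers had positive fold changes (median 1.66, quartiles 1.24 to 1.91), and 1 passed FDR 0.20. ADIPOQ, adiponectin, was highest in DG F1, at 34.6 CPM, where FASN was also highest. The part of fat cells in these lipid values was not tested. Glucose genes had 0 of 27 past FDR 0.05 and 3 higher at FDR 0.20, among them PFKL (log2 fold change 0.84 ± 0.20, FDR = 0.0641) and HK2 (log2 fold change 1.2 ± 0.42, FDR = 0.189), hexokinase 2. Glycogen metabolism had none of 21 past FDR 0.20, with PPP1R3B nearest (log2 fold change 0.62 ± 0.22, FDR = 0.203).

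The most abundant called locus was H19_1, at the imprinted H19 noncoding RNA. It stood at 1128, 399, 586 and 761 CPM in CN and at 3447, 2339, 1532 and 1745 CPM in DG (log2 fold change 1.66 ± 0.33, FDR = 0.033). The CN pools spanned a wide range and the lowest DG pool was above the highest of them. The HY mean was 1235 CPM. The locus that carries the names IGF2 and TH, next to H19 on chromosome 21, was at 1661, 2586, 2188 and 2149 CPM in CN and 3850.4, 2688, 3893 and 3013 CPM in DG and passed only the wider FDR (log2 fold change 0.65 ± 0.17, FDR = 0.0809). H19_1 lies in a region shared by 14 loci (chr21:48309587-48683782), and reads of overlapping transcripts there cannot be told apart without strand. Among 17 circadian genes, TEF, a PAR bZIP output factor, rose from 48.1, 44.7, 46.7 and 48.3 CPM to 67.95, 72.2, 82.1 and 69.2 CPM (log2 fold change 0.63 ± 0.14, FDR = 0.0456), and its relative HLF was higher at the wider FDR (log2 fold change 1.67 ± 0.38, FDR = 0.0564). The list median was 0.21. The RPL13A locus on chromosome 9 went from 3.85, 1.64, 2.15 and 3.46 CPM to 37.7, 22.9, 13.8 and 28.01 CPM (log2 fold change 3.21 ± 0.42, FDR = 0.00593), but ribosomal protein genes have near-identical copies, and the RPL13A locus on chromosome 14 was at 1402 and 1266 CPM.

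The loci lower in DG were few by the main test, and 5 of the 7 at FDR 0.05 had no gene name (median log2 fold change of the 7, -1.42). DESeq2 called 99 lower at that FDR. The study, with Cuffdiff, also reports most of its called genes as higher in DG, but its share of lower genes was larger than in the main test here. HEBP2, a haem-binding protein (chr8:63221035-63231257), was at 14.9, 18.8, 18.9 and 18.1 CPM in CN and 10.7, 11.2, 11.2 and 13.6 CPM in DG, with no CN pool below any DG pool (log2 fold change -0.6 ± 0.13, FDR = 0.0498). The other named one was a locus of small nucleolar RNAs SNORD22 and SNORD31, at 53.9, 43.5, 51.02 and 56.1 CPM in CN and 30.9, 38.8, 31.6 and 33.01 CPM in DG (log2 fold change -0.61 ± 0.12, FDR = 0.0348). The libraries followed an mRNA protocol. Whether these counts came from the small RNAs or from a longer transcript of the locus was not tested.

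At the wider FDR of 0.20, the largest falls with adequate counts were at single genes of varied roles. MFAP5, a microfibril protein, gave 101, 173, 74.3 and 154 CPM in CN and 62.7, 65.3, 76.4 and 70.03 CPM in DG (log2 fold change -0.88 ± 0.20, FDR = 0.0585). The DG pools were uniform, while CN M1 lay among them. TNC, tenascin C, a matrix glycoprotein of tendon attachments and repair, was at 13.5, 17.7, 14.9 and 8.202 CPM in CN and 3.64, 7.82, 5.37 and 8.16 CPM in DG (log2 fold change -1.12 ± 0.31, FDR = 0.107), and CN M2 and DG M2 nearly touched. FMOD, fibromodulin, was lower at 1 locus (log2 fold change -1.07 ± 0.37, FDR = 0.184), but its second locus was at 18.3 and 15.1 CPM, and the sum gave -0.44 ± 0.27, FDR = 0.445. GSTM3, a glutathione transferase, was at 78.5, 70.2, 82.4 and 124 CPM in CN and 60.1, 44.1, 28.1 and 34.98 CPM in DG (log2 fold change -1.09 ± 0.27, FDR = 0.0745). PIGP, an enzyme of GPI anchor synthesis, was at 28.2 ± 5.81 and 16.3 ± 3.23 CPM (log2 fold change -0.79 ± 0.22, FDR = 0.0974). STRA6, the vitamin A receptor (log2 fold change -0.86 ± 0.25, FDR = 0.116), BFSP1, a beaded filament protein (log2 fold change -0.83 ± 0.25, FDR = 0.135), and ISM1, a secreted isthmin (log2 fold change -0.86 ± 0.27, FDR = 0.153), had similar changes, and ISM1 overlapped between the diets. BEX5, on the X chromosome, was at 2.92, 2.46, 9.03 and 10.3 CPM in CN and 2.17, 1.899, 2.42 and 0.918 CPM in DG (log2 fold change -1.74 ± 0.52, FDR = 0.129). Both male CN pools were high there, while the female CN pools lay close to the DG pools. The male CN pools held fetuses of the same dam, which no female CN pool did, so sex and litter cannot be told apart. RPL17 at a locus with near-identical copies elsewhere had CN F1 at 20.4 CPM and the other CN pools at 1.08 CPM or lower (log2 fold change -3.78 ± 1.31, FDR = 0.194). TNC and FMOD are expressed in tendon and fascia, and the summed tendon and cartilage markers tested were at 9.39 to 18.7 CPM in CN and 10.7 to 24.4 CPM in DG. Fibroblast markers summed to 4441 to 7569 CPM in CN and 4679 to 6848 CPM in DG (exact permutation p = 0.571), and 6 of the 7 had negative fold changes (median -0.25). The part of these cells in the lower values was not tested.

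Ribosomal and respiratory chain genes had mostly negative fold changes. For the same samples the study reports that most differentially expressed genes of its ribosome term were higher in CN. None of 46 oxidative phosphorylation genes passed FDR 0.05, but 33 had negative fold changes (median -0.18) and 3 were lower at FDR 0.20, with NDUFS5 at 442, 321, 312 and 422 CPM in CN and 172, 309, 204 and 293 CPM in DG (log2 fold change -0.62 ± 0.20, FDR = 0.157). Of 62 mitochondrial ribosomal proteins, 45 had negative fold changes (median -0.17), with 6 lower and 3 higher at FDR 0.20. MRPL21 was the nearest to the stricter threshold (log2 fold change -0.59 ± 0.13, FDR = 0.0539). Of 38 cytosolic ones, 29 had negative fold changes (median -0.29), with 7 lower and 0 higher at FDR 0.20. RPL37 was at 445, 317, 417 and 489.7 CPM in CN and 176, 315, 224 and 299.8 CPM in DG (log2 fold change -0.72 ± 0.21, FDR = 0.129), and DG F1 was the lowest pool for RPL37 and NDUFS5. These genes have near-identical copies in the genome. Genes of the mitochondrial genome were not analysed here. Some further lists had no member past FDR 0.05, with 4 of 27 fatty acid uptake and oxidation genes, 3 of 39 translation factors, 2 of 22 AMPK genes and 1 of 15 immediate early genes higher at FDR 0.20 and none lower. Cell cycle genes had 2 of 36 higher and 1 lower, and 12 histone genes had none in either direction. The study's own named muscle genes had 8 of 20 higher at FDR 0.05 and 15 at FDR 0.20 (median 0.95), which is not independent evidence because they were chosen on these samples. Where a list's count at FDR 0.20 is read, the share over all loci was 5.45% higher and 1.62% lower. Over the 13589 named loci, the nearer reference for lists of named genes, it was 6.78% higher and 1.45% lower. Fold changes were positive at 7241 of these named loci and negative at 6348.

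**Figure D4:**
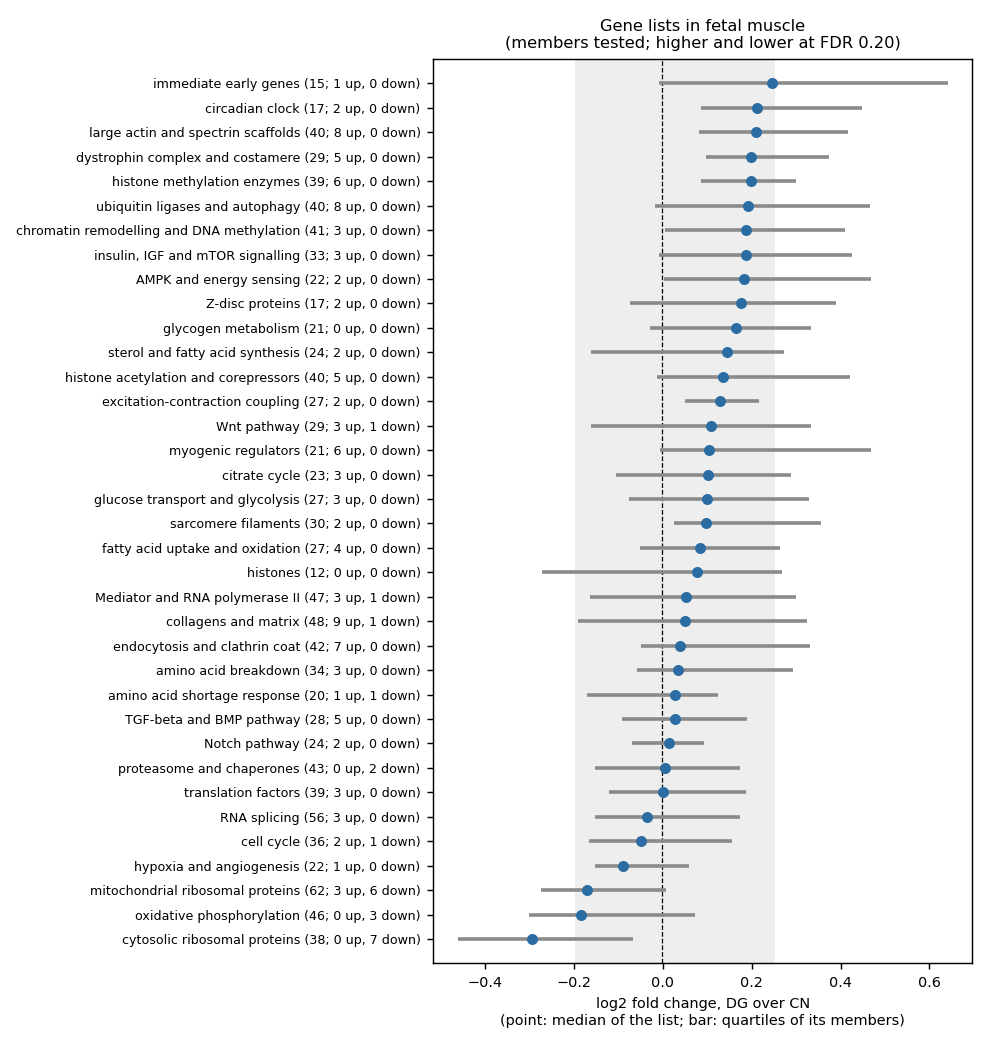
Median log2 fold change of DG over CN (points) and quartiles of the members (bars) on the x axis for each pathway list shown (y axis), with the number of members tested and called at FDR 0.20 in brackets. Grey shading spans the quartiles of all loci, -0.20 to 0.25, and of the lists shown only the cytosolic ribosomal proteins have a median below that range (-0.29).

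The diet effect was not found to differ between the sexes. In the test of the difference, 0 loci (0.0%) passed FDR 0.05 by edgeR and 0 by DESeq2, while 1148 (6.18%) had an unadjusted p at or below 0.05. With 2 pools per sex and diet the precision was low, and the 2 male pools shared a dam in CN and in DG. BEX5 had log2 fold changes of -0.4 in female and -2.56 in male pools (difference -2.16 ± 0.67, FDR = 0.768), and GSTM3 had -0.51 and -1.71 (FDR = 0.768). For 13283 genes measured in all tissues, the muscle change was compared with that in the fat depots of pools with the same numbers. No gene differed from perirenal fat at FDR 0.05 by edgeR or DESeq2 (0.0%, 425 at an unadjusted p of 0.05 or 3.2%). None differed from subcutaneous fat by edgeR (0.0%, 1030 unadjusted or 7.75%) and 20 did by DESeq2. In its own fit perirenal fat had 21 loci called by edgeR (0.115%), beside 1807 at an unadjusted p of 0.05 (9.9%). LAMA5 (log2 fold change 1.24, FDR = 0.0381) and CHID1 (1.32, FDR = 0.043) were among the 21. Subcutaneous fat had 0 loci called by edgeR, beside 2701 at an unadjusted p of 0.05 (15.0%). For these diets the study, with Cuffdiff, reports more genes at FDR 0.05 in both depots, and more in subcutaneous than in perirenal fat. The 0 calls here are therefore no evidence that subcutaneous fat lacked a diet effect. Nor do the tests between tissues show that the changes were alike.

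HY muscle was compared with the same CN pools, so its values are not separate evidence and are set beside those of DG only. COL4A2 had means of 83.3, 227 and 235 CPM in CN, DG and HY. SQSTM1 had 7.44, 21.7 and 20.3 CPM. TMEM8C had 1.27, 3.64 and 3.98 CPM, and RGMA 3.29, 8.82 and 8.89 CPM. The HY means of these 4 genes lay close to those of DG. H19_1 (718, 2266 and 1235 CPM) and TNC (13.6, 6.25 and 11.1 CPM) had HY means between those of the other diets. The median of the 181 higher loci, relative to CN, was 0.73 to 1.03 (log2) in the HY pools.

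How many loci were called rested on single pools. With 1 pool left out, the higher loci numbered 320 without CN F2, the single fetus, 169 without CN F1, 162 without DG M2, 120 without DG F2, 96 without DG F1, 59 without CN M2, 27 without CN M1 and 22 without DG M1. All 188 called loci kept their direction in each of these fits, but this is no test of them. At all 181 higher loci every DG pool already lay above every CN pool, so leaving out 1 pool could hardly reverse them. The lower loci numbered between 0 (without DG M1) and 19 (without CN F2). With only the 8 CN and DG pools in the fit, 9 higher and 0 lower loci passed, and 475 higher and 112 lower passed FDR 0.20. DESeq2 called 610 higher and 99 lower. COL4A2, RGMA, ALDH4A1, RHOB, SQSTM1, NACC1, FGFRL1 and RPL13A passed in the 8-pool fit. These 8, with RANGAP1, NOS3, CTBP1, EPN1 and the CHI3L1 and MYBPH locus, also passed in every fit that left out 1 pool. HSPG2 passed in 6 of those 8 fits, TMEM8C in 5, LAMA5 in 5, H19_1 in 3, DAG1 and HEBP2 in 2, IDH3B and COL6A2 in 1 and TEF in 0. Their log2 fold changes over these fits ran from 1.2 to 1.64 (HSPG2), 1.36 to 1.61 (TMEM8C), 0.92 to 1.34 (LAMA5), 1.39 to 1.96 (H19_1), 0.57 to 0.79 (DAG1), -0.68 to -0.55 (HEBP2), 1.17 to 1.74 (IDH3B) and 0.56 to 0.67 (TEF). Of the 48 loci at FDR 0.05 that met the naming rule, some of them not reported here, 11 passed without CN M1 and 10 without DG M1.

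**Figure D5:**
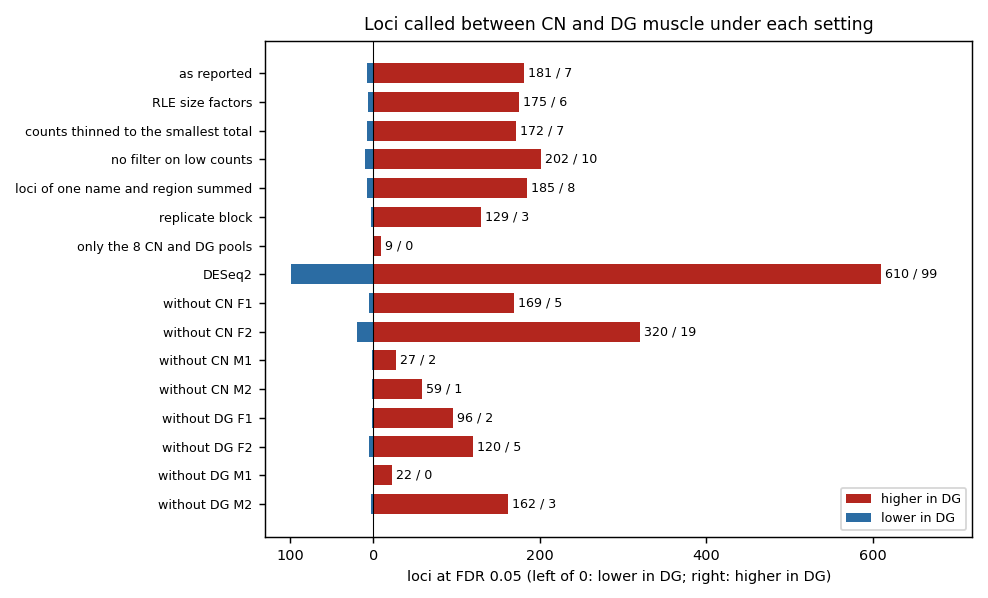
Number of loci called at FDR 0.05 (x axis, higher in DG to the right in red and lower to the left in blue) as reported and under each alternative (y axis). The count ran from 9 higher loci with the 8 CN and DG pools alone to 610 with DESeq2.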

How the data were processed

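RNA from pooled fetuses (a single fetus for CN F2) was sequenced as single-end reads after Illumina's mRNA-Seq protocol. The authors aligned reads to Oar_v3.1 with TopHat 2.0.4 and assembled loci per tissue with Cufflinks 2.1.1 and cuffmerge. The values used are raw read counts per locus as deposited. The submitters' processing notes also name HTSeq, and counting options and strand are not given in the sources used here.

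Loci were filtered with filterByExpr (minimum count 10, minimum total 15) and scaled by TMM. All 12 muscle pools were fitted with edgeR 4.0.16 (R 4.3.3) by the robust quasi-likelihood F test, which left 18573 of 34958 loci. The SE is the absolute log2 fold change over the square root of F, and FDR is by Benjamini-Hochberg. Single values per pool were compared by two-sided exact permutation tests. DESeq2 1.42.0, RLE factors, no filter, thinned counts, 8 pools only, a replicate block, and leaving out each pool were the alternatives, with summed loci added later. Tables and plots used Python 3.11.15, pandas 2.3.3, numpy 2.4.6 and matplotlib 3.10.9.

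The members and gene lists were chosen with earlier results of these data known. Named genes were, leaving out those the study names for muscle, the 15 largest rises at FDR 0.05 and the 10 largest falls at FDR 0.20 with a mean of at least 50 counts, every named locus lower at FDR 0.05, list members at FDR 0.05 (or up to 3 with the smallest p where a list had none), and the 10 smallest p. HIRA, which the study names, is shown as a list member. Genes outside the rule, such as NOS3, CTBP1, EPN1, the members of lists at FDR 0.20, and those set beside a named gene, were chosen after their values were seen. Some genes and lists that met the rule are not reported here. The fits were tested on simulated counts of independent pools with a dispersion of 0.05. In them 200 loci with a mean of at least 50 counts were changed by 2 on the log2 scale. The quasi-likelihood test recovered 100% of them, with 4.31% false calls. DESeq2 recovered 100% with 11.9% false calls, and the test of a sex difference recovered 67%. In the data the 181 higher loci had a median change of 1.06, and every pool except CN F2 shared a dam with another pool of its diet. These rates therefore do not hold for smaller changes, lower counts or pools that are not independent.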

Additional observations from a re-analysis of the deposited data

Results flagged for a closer look

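In 122 groups of 4 pools searched, 9 had 1 pool whose gap to the nearest other pool was above the critical share of the group's range in Dixon's test. Chance gives this in about 1 in 20 groups. No explanation was tested for these values.

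Among CN pools, CN M2 was apart for KDM6B, at 11.5 CPM with the others between 14.5 and 14.98, and for CACNG1, at 56.1 CPM with the others between 45.6 and 47.0. CN F2 was apart for KIF1C, at 124 CPM beside 91.3 to 96.8. CN M1 was low for ISM1, at 2.29 CPM beside 4.79 to 5.08, and for AP1B1, at 11.3 CPM beside 15.1 to 15.7. CN F1 was low for CRKL, at 1.28 CPM beside 2.51 to 2.64, and high for RPL17, at 20.4 CPM beside 0.143 to 1.08. Among DG pools, DG F1 was high for UBR4, at 101 CPM beside 77.3 to 80.7, and for RHOB, at 18.8 CPM beside 11.1 to 11.97.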

How the results depend on the processing

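RLE factors (175 higher, 6 lower), thinning (172, 7) and no filter (202, 10) left the counts at FDR 0.05 within 1.5 times of those reported. DESeq2 gave 610 higher and 99 lower, and 571 lower at FDR 0.20. With only the 8 CN and DG pools, 9 higher and 0 lower passed, and 475 higher and 112 lower at FDR 0.20. Without the filter, 144 were lower at FDR 0.20. Leaving out 1 pool gave 22 to 320 higher and 0 to 19 lower loci at FDR 0.05, and 433 to 1621 higher and 58 to 662 lower at FDR 0.20. The lowest counts at FDR 0.05 came without DG M1 and the highest without CN F2, a single fetus. The cause was not tested. Of the 188 loci, 187 were called by DESeq2 and 180 with RLE factors.

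With the replicate block, 129 higher and 3 lower loci passed FDR 0.05, and 151 lower passed FDR 0.20. Pools of the same number in CN and DG had a mean correlation of deviations of -0.062 (-0.156 to 0.086), beside 0.022 for different numbers, so the numbers did not pair the pools. For muscle against subcutaneous fat, 3 genes passed with no replicate block, 1 with RLE factors, 1 without the filter and 20 with DESeq2, and 0 to 5 with 1 pool left out. The sex difference and the perirenal comparison gave 0 to 0 with 1 pool left out.

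Summing loci of 1 name in a region, chosen after seeing the data, gave 185 higher and 8 lower loci. Of 31 called loci with such a partner, 23 stayed called and 8 did not, among them CHI3L1 with MYBPH, RBM38, MAF, HSP70, RELA, CD81 and MKL1. Low counts limited precision for genes of a few CPM, and 4 pools a diet limited all tests.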

Other observations

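Further genes that rose in DG muscle at FDR 0.05 were picked after their values were seen, so they are given as values only. In mitochondrial quality control, PINK1, the kinase that marks damaged mitochondria, went from 6.09 ± 2.09 to 13.5 ± 1.73 CPM (log2 fold change 1.16 ± 0.23, FDR = 0.0345). BCL2L13, a mitophagy receptor, went from 13.1 ± 2.38 to 26.8 ± 5.73 CPM (log2 fold change 1.03 ± 0.17, FDR = 0.0149), and AMBRA1, an autophagy regulator, from 7.26 ± 0.727 to 13.9 ± 4.29 CPM (log2 fold change 0.93 ± 0.19, FDR = 0.033). Of vascular genes, NOS3, endothelial nitric oxide synthase, went from 3.105 ± 0.649 to 7.85 ± 1.57 CPM (log2 fold change 1.34 ± 0.20, FDR = 0.0129), and it passed in each fit that left out 1 pool. CCM2, of endothelial junctions, went from 11.6 ± 1.21 to 18.4 ± 2.48 CPM (log2 fold change 0.67 ± 0.14, FDR = 0.0387), and FGD5, an endothelial exchange factor, from 15.6 ± 0.627 to 25.4 ± 4.69 CPM (log2 fold change 0.70 ± 0.14, FDR = 0.0293). These 3 do not stand for vascular genes as a group. Of 22 hypoxia and angiogenesis genes tested, 7 had positive and 15 negative fold changes (median -0.09), with 1 higher and 0 lower at FDR 0.20. Endothelial markers summed to 532 to 658 CPM in CN and 655 to 804 CPM in DG, and their part in the values of NOS3, CCM2 and FGD5 was not tested.

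Guidance molecules included NTN1, netrin 1, from 0.423 ± 0.234 to 1.82 ± 0.803 CPM (log2 fold change 2.07 ± 0.41, FDR = 0.0317), and SEMA4C, a semaphorin, from 12.2 ± 1.21 to 19.99 ± 2.39 CPM (log2 fold change 0.71 ± 0.13, FDR = 0.0252). PLXND1, a semaphorin receptor of vessels, went from 78.7 ± 11.1 to 121 ± 17.6 CPM (log2 fold change 0.62 ± 0.13, FDR = 0.033). In the matrix, GPC1, a heparan sulphate proteoglycan, went from 11.4 ± 2.25 to 21.99 ± 2.67 CPM (log2 fold change 0.95 ± 0.16, FDR = 0.0149), and PXDN, which crosslinks type IV collagen, from 34.9 ± 7.47 to 70.8 ± 26.9 CPM (log2 fold change 1.02 ± 0.22, FDR = 0.0434). In transcription, CTBP1, a corepressor, went from 3.60 ± 0.827 to 9.80 ± 2.83 CPM (log2 fold change 1.44 ± 0.22, FDR = 0.0129), and KLF15, a regulator of amino acid and lipid use in muscle, from 0.346 ± 0.0506 to 1.21 ± 0.359 CPM (log2 fold change 1.77 ± 0.31, FDR = 0.0176).

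By chromosome, the share of loci higher in DG at FDR 0.20 was highest on chromosome 21 (9.48%), then 24 (8.79%) and 11 (8.55%), and lowest on chromosomes 8 (2.25%), 1 (2.82%) and 7 (2.85%), beside 5.45% of all loci.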
